A study of Mus musculus with 847 samples.

Results

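Pericytes and vascular muscle cells, together called mural cells, form the outer wall of brain blood vessels. A set of 10 genes used as their markers were followed among the 21076 genes of the count table: Pdgfrb, Rgs5, Vtn, Anpep, Notch3, Abcc9 and Higd1b for pericytes, and Acta2, Tagln and Myh11 for vascular muscle. They were chosen by gene symbol. Messenger RNA was sequenced, without strand information, from dissected brain tissue of 59 C57BL/6JN mice, an inbred laboratory strain, with no treatment or engineered allele named in the labels. Each library came from 1 region of 1 mouse, and the libraries covered 15 regions: caudate putamen, cerebellum, choroid plexus, corpus callosum, entorhinal cortex, anterior and posterior hippocampus, hypothalamus, medulla, motor cortex, olfactory bulb, pons, subventricular zone, thalamus and visual cortex. The ages of 3, 12, 15 and 18 months had 5 females and 5 males each, 21 months had 5 females and 6 males, and the ages of 26 and 28 months had males alone, 5 and 3 of them. Beyond 21 months a change with age can therefore be followed in males alone.

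Pericytes lie within the basement membrane of capillaries and are held there by platelet-derived growth factor from the endothelium, which acts on the receptor encoded by Pdgfrb. Vascular muscle cells wrap arteries and arterioles and set their diameter by contraction of actin filaments along smooth muscle myosin. Notch signalling from the endothelium, received in mural cells mainly by Notch3, maintains the muscle of small arteries. Several of the markers are shared between both kinds of mural cell, Pdgfrb, Rgs5 and Notch3 among them. In homogenized tissue, fewer cells of a type and less RNA per cell cannot be told apart.

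The libraries held a median of 6716032 counted reads, between 481444 and 26756735, and each region had 51 to 59 of them. No 2 libraries were identical. Median counted reads by age lay between 6327609 at 18 months and 7490224 at 28 months. Earlier results of these data had set 3 libraries apart. In 1 of them, entorhinal cortex of mouse 52, Notch3 at 13.5 counts per 1000000 counted reads (CPM) and Higd1b at 3.92 CPM were the highest of the 51 libraries of the region. In the other 2, subventricular zone of mouse 3 and posterior hippocampus of mouse 38, all 10 genes lay within the range of the other libraries. Without these 3 libraries every age and sex call on a gene in a region held, and 1 result given below was lost, the difference of Vtn's slopes between regions (edgeR adjusted p = 0.055). The labels of the regions were read against an 11-gene list of choroid plexus epithelium, whose summed median was 6310 CPM in the choroid plexus and 6.96 CPM in the motor cortex, but also 540 CPM in the corpus callosum and 383 CPM in the subventricular zone, which border the ventricles.

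The pericyte genes spanned a wide range of levels. Per length of their exons and number of counted reads (RPKM), Vtn was the highest of the 10 genes with a median of 24.3 over all libraries, followed by Rgs5 at 6.92, Acta2 at 5.70, Higd1b at 3.75, Pdgfrb at 2.77, Tagln at 1.58, Notch3 at 1.00, Myh11 at 0.442, Abcc9 at 0.389 and Anpep at 0.187. The depth behind these values differed as much: the median library held 335 reads of Vtn, 209 of Rgs5 and 100 of Pdgfrb, but 21 of Abcc9, Higd1b, Tagln and Myh11 and 5 of Anpep. Anpep had no read in 75 libraries, and its values carry a large counting error. Region accounted for between 12.1% (Abcc9) and 59.5% (Vtn) of the variance of a member's log2 CPM, age in months for at most 1.88% (Tagln) and sex for at most 0.526% (Myh11). The mouse, beyond its age and sex, accounted for between 2.45% (Vtn) and 9.06% (Pdgfrb). These shares were not tested, and a term for 59 mice takes up some variance even without a mouse effect.

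**Figure D1:**
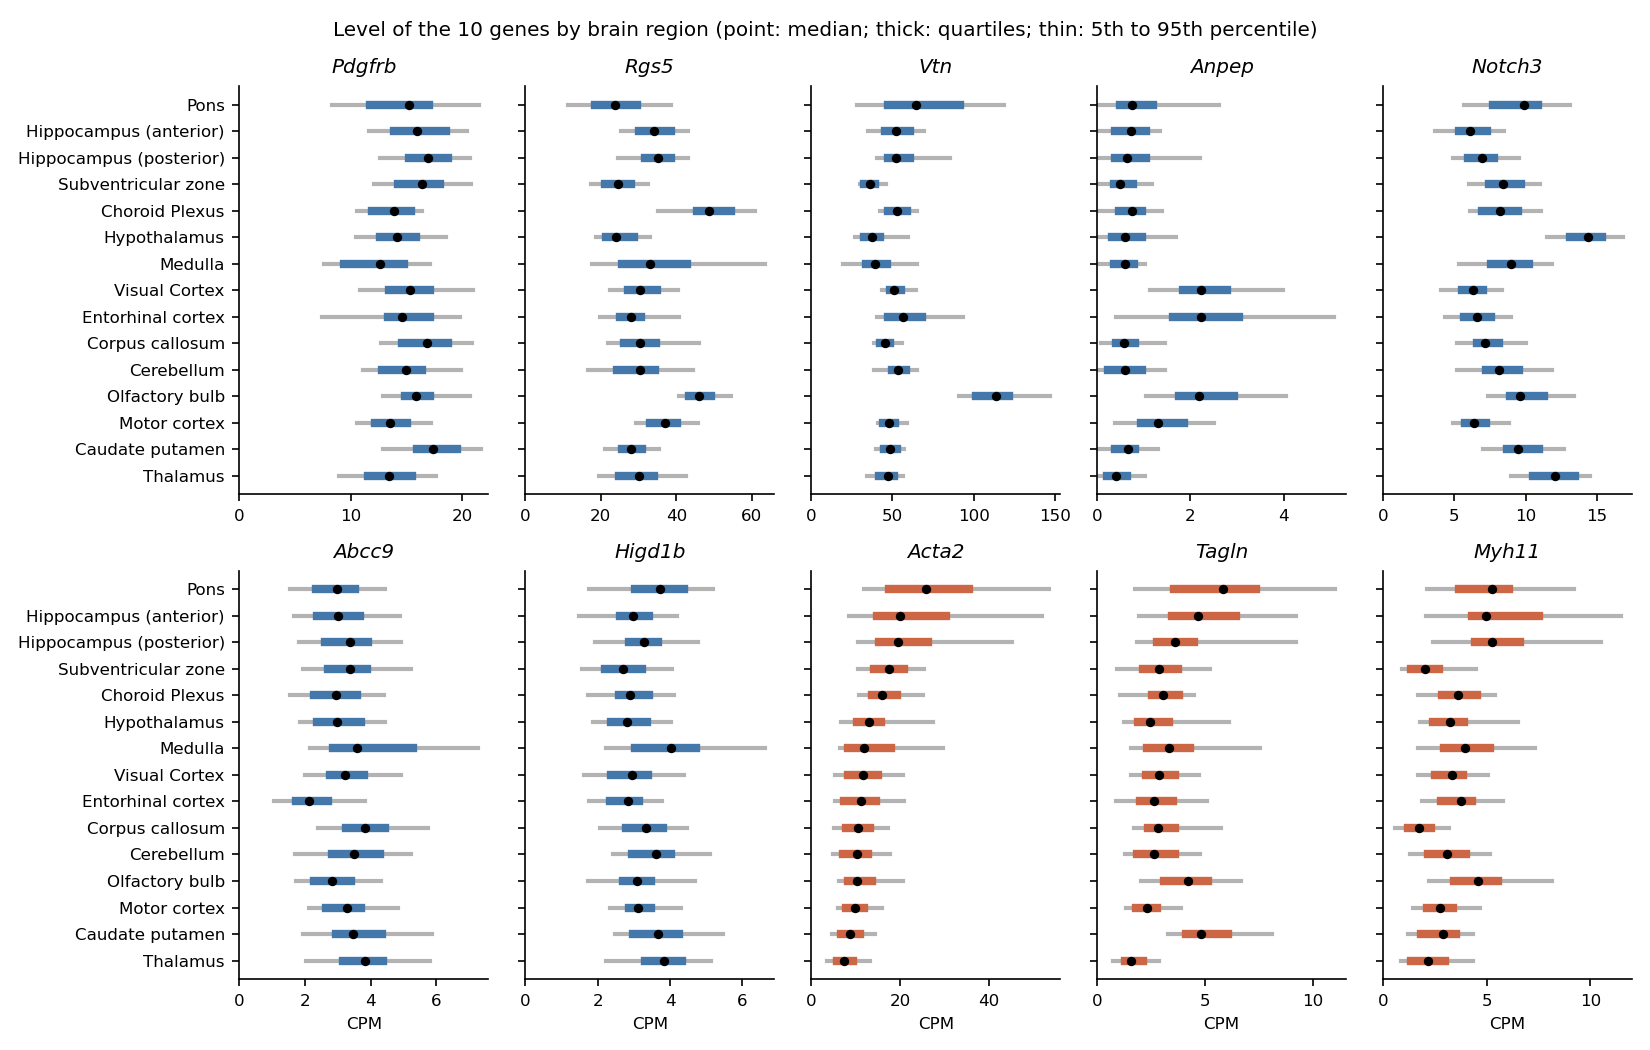
Level of each of the 10 genes (CPM, horizontal axis, each panel with its own scale from 0) in the 15 regions, sorted by the median of Acta2. Points are medians over libraries, coloured lines the quartiles and grey lines the 5th to 95th percentile, pericyte genes in blue and vascular muscle genes in orange: Vtn stands apart in the olfactory bulb, Anpep in 3 regions, and Acta2 in the pons, while Pdgfrb differs little.

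Pdgfrb, the receptor that holds pericytes on capillaries (chromosome 18, 61045150 to 61085061, GRCm38, plus strand), was the most even of the 10 genes across the brain. Its median was highest in the caudate putamen at 17.4 CPM (10.5 to 24.0 over 58 libraries) and lowest in the medulla at 12.6 CPM (4.32 to 20.9), a ratio of 1.38. These ranges overlapped over most of their length. Each region was compared with the mean of the other 14 by edgeR's quasi-likelihood test with Benjamini-Hochberg adjustment over all genes, on which every adjusted p below rests unless another tool is named. The caudate putamen stood higher by 0.30 on the log2 scale (SE 0.036, edgeR adjusted p = 7.4e-16), and the medulla lower, with a log2 difference of -0.27 (SE 0.035, edgeR adjusted p = 2.1e-13).

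Rgs5 encodes a regulator that shortens G protein signalling (chromosome 1, 169655501 to 169695813, plus strand). Its highest median was in the choroid plexus, 48.7 CPM (21.2 to 65.4), and its lowest in the pons, 23.7 CPM (9.76 to 40.9). The olfactory bulb followed the choroid plexus at 45.9 CPM (35.5 to 89.5), and these neighbours overlapped in range. The log2 difference from the mean of the other regions was 0.65 in the choroid plexus (SE 0.040, edgeR adjusted p = 9.7e-51) and 0.50 in the olfactory bulb (SE 0.042, edgeR adjusted p = 1.1e-29).

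Vtn encodes vitronectin, an adhesion protein that pericytes secrete into the vessel wall (chromosome 11, 78499091 to 78502324, plus strand). In the olfactory bulb it ranged from 80.3 to 180 CPM with a median of 114, against a median of 64.2 CPM in the pons, the next region, and 36.3 CPM in the subventricular zone, the lowest. The lowest library of the olfactory bulb was above the highest library of the cerebellum, choroid plexus, caudate putamen, corpus callosum, motor cortex, thalamus, visual cortex, anterior hippocampus and subventricular zone, and overlapped the other 5 regions. The difference from the mean of the other regions was 1.11 on the log2 scale (SE 0.037, edgeR adjusted p = 2.3e-135).

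Anpep encodes aminopeptidase N, an enzyme of the pericyte surface (chromosome 7, 79821803 to 79861059, minus strand). Its medians were 2.22 CPM in the entorhinal cortex, 2.22 CPM in the visual cortex, 2.18 CPM in the olfactory bulb and 1.31 CPM in the motor cortex, against 0.404 (thalamus) to 0.758 CPM (pons) in the other 11 regions. Single libraries overlapped between all regions. The log2 difference from the mean of the other regions was 1.45 in the visual cortex (SE 0.085, edgeR adjusted p = 8.1e-57), 1.41 in the entorhinal cortex (SE 0.079, edgeR adjusted p = 5.1e-60) and -1.10 in the thalamus (SE 0.13, edgeR adjusted p = 9.7e-17). The entorhinal cortex, olfactory bulb and visual cortex also held much RNA of a 12-gene list of fibroblasts and meninges, the connective tissue over the brain surface. The summed median of the list was 523 CPM in the entorhinal cortex, 306 CPM in the olfactory bulb and 207 CPM in the visual cortex. It was 123 CPM in the motor cortex and 42.6 CPM in the caudate putamen. It was 231 CPM in the pons and 235 CPM in the choroid plexus, where Anpep did not pass the test against the other regions (log2 differences of 0.0087, edgeR adjusted p = 0.91, and -0.21, edgeR adjusted p = 0.06). In the thalamus, where Anpep was lowest, the list had medians of 127 CPM at 3 months and 134 CPM at 21 months. At the same ages it had 115 and 123 CPM in the motor cortex, 130 and 138 CPM in the anterior hippocampus, and 131 and 152 CPM in the posterior hippocampus. The part of fibroblasts and meninges in the regional levels of Anpep was not tested.

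Notch3, the receptor of mural cells for Notch ligands (chromosome 17, 32120820 to 32166852, minus strand), was highest in the hypothalamus, with 8.95 to 21.2 CPM and a median of 14.4, followed by the thalamus with 6.83 to 15.9 CPM and a median of 12.0. Its lowest median was 6.11 CPM in the anterior hippocampus (2.77 to 10.3). The log2 difference from the mean of the other regions was 0.71 in the hypothalamus (SE 0.035, edgeR adjusted p = 3.1e-75), 0.55 in the thalamus (SE 0.035, edgeR adjusted p = 2e-48) and -0.42 in the anterior hippocampus (SE 0.041, edgeR adjusted p = 2.2e-22). Of the other members, Abcc9 and Higd1b were also higher in the thalamus, and Pdgfrb, Rgs5, Vtn, Anpep and the 3 muscle genes were lower.

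Abcc9 encodes the sulfonylurea receptor subunit of the ATP-sensitive potassium channel of mural cells (chromosome 6, 142587862 to 142702315, minus strand). Higd1b encodes a small protein of the mitochondrial inner membrane family (chromosome 11, 102835849 to 102838040, plus strand). Both varied little by region: the medians of Abcc9 lay between 2.12 CPM (entorhinal cortex) and 3.84 CPM (corpus callosum), those of Higd1b between 2.69 CPM (subventricular zone) and 4.02 CPM (medulla), and the libraries of all regions overlapped. In the medulla Abcc9 was higher than the mean of the other regions by 0.39 (SE 0.049, edgeR adjusted p = 1.5e-14) and Higd1b by 0.41 on the log2 scale (SE 0.039, edgeR adjusted p = 1.8e-23). Abcc9 was lower in the entorhinal cortex, with a log2 difference of -0.54 (SE 0.065, edgeR adjusted p = 8.8e-16).

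Acta2 encodes the alpha actin of smooth muscle (chromosome 19, 34241090 to 34255590, minus strand). Its control is a textbook case of the CArG box, the site of serum response factor, which with its partner myocardin drives contractile genes. The 250 bases before the RefSeq start of Acta2 held 0 boxes of the strict form, CC, 6 central bases that are all A or T, and GG, which 1.35% of promoters held. They held 2 of a relaxed form, searched on both strands with at most 1 G or C among the 6 central bases. The 2 are shown because Acta2, Tagln and Myh11 are described together below, with 10 bases on either side, 5′ to 3′ on the strand of the gene, and the box in capitals (GRCm38.p6, RefSeq):
Acta2 site 1, chr19:34255438-34255467: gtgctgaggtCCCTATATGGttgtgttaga
Acta2 site 2, chr19:34255388-34255417: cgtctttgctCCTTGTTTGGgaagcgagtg
Counted to the start, they lay 84 and 34 bases before it, inside the first exon of a longer GENCODE transcript. At least 1 relaxed box was found in 8.06% of 19490 promoters and at least 2 in 0.616%. No box of either form was found in the same window of Rgs5, Vtn, Anpep, Notch3 and Abcc9, the other members that matched the promoter table by symbol (6 of 10), and that says only that these letters are not in these windows.

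The level of Acta2 was highest in the pons, from 8.95 to 77.2 CPM with a median of 25.8, followed by the anterior hippocampus at 20.1 CPM (5.07 to 56.5) and the posterior hippocampus at 19.5 CPM (7.26 to 54.3). It was lowest in the thalamus, 7.30 CPM (2.77 to 15.1). Libraries of 1 region differed several-fold, and the ranges of all regions overlapped. The log2 difference from the mean of the other regions was 1.18 in the pons (SE 0.071, edgeR adjusted p = 3.5e-53), 0.82 in the anterior hippocampus (SE 0.074, edgeR adjusted p = 4.3e-26) and -0.90 in the thalamus (SE 0.093, edgeR adjusted p = 9.4e-21).

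Tagln encodes transgelin, an actin-binding protein of smooth muscle (chromosome 9, 45929619 to 45936058, minus strand). It too was highest in the pons, 5.82 CPM (1.40 to 16.5), and lowest in the thalamus, 1.60 CPM (0.445 to 3.63), with log2 differences of 0.89 (SE 0.069, edgeR adjusted p = 3.7e-34) and -1.08 (SE 0.098, edgeR adjusted p = 4.3e-26). In the caudate putamen the 2 genes stood at opposite ends: the median of Tagln was the second highest of the regions, at 4.82 CPM (2.49 to 11.6) and 0.75 above the mean of the other regions (SE 0.076, edgeR adjusted p = 1.6e-21), while the median of Acta2, 8.76 CPM, was the second lowest, with a log2 difference of -0.57 (SE 0.092, edgeR adjusted p = 1.7e-09). Without strand information, reads of Tagln cannot be told apart from those of overlapping genes on the plus strand. Pcsk7, in the count table, shares 108 exonic bases or 5.43% of Tagln, and the antisense RNA Gm48529, not in the count table, shares 62.4%. Antisense RNAs outside the count table also overlap 6.03% of Notch3 and 1.89% of Abcc9. Pcsk7 had a median of 31.4 CPM in the caudate putamen, the highest of its 15 regional medians.

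Myh11 encodes the heavy chain of smooth muscle myosin (chromosome 16, 14194535 to 14291372, minus strand). It was highest in the posterior hippocampus at 5.26 CPM (2.11 to 13.6) and the pons at 5.24 CPM (0.882 to 14.0), 2 regions whose ranges overlapped almost wholly, and lowest in the corpus callosum at 1.76 CPM (0 to 4.38). Against the mean of the other regions the anterior hippocampus stood highest, by 0.87 on the log2 scale (SE 0.069, edgeR adjusted p = 8.2e-33), and the corpus callosum lowest, at -0.94 (SE 0.092, edgeR adjusted p = 9.8e-23).

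Over all 150 pairs of gene and region, 48 were higher (32%), 60 lower (40%) and 42 had no call. Among all genes tested, 41.8% of pairs were called higher and 42.6% lower, shares that the 10 genes did not exceed. With the mouse as a block, 3 further pairs passed: Anpep in the choroid plexus (log2 difference -0.24, edgeR adjusted p = 0.03), Higd1b in the corpus callosum (0.094, edgeR adjusted p = 0.042) and Pdgfrb in the cerebellum (-0.075, edgeR adjusted p = 0.044). The 10 genes did not share 1 regional order. Across the 15 regional means, given as a description of points that share libraries and depth, r was 0.55 between Acta2 and Tagln, 0.63 between Acta2 and Myh11 and 0.60 between Tagln and Myh11, but -0.062 between Pdgfrb and Rgs5 and -0.57 between Anpep and Abcc9.

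Within most regions, mice with much Acta2 had much Myh11 and Tagln. The pair of Tagln and Myh11 was not tested within regions. With age and sex removed, Pearson's r over mice between Acta2 and Myh11 was positive in all 15 regions, from 0.38 in the corpus callosum to 0.87 in the anterior hippocampus, with a median of 0.62 (Spearman's median rho 0.63), and all 15 passed a permutation test adjusted over the 60 tests of 4 pairs (adjusted p at most 0.0056). Between Acta2 and Tagln r ran from 0.23 in the thalamus to 0.91 in the pons with a median of 0.58 (median rho 0.53), and 13 of 15 passed. The exceptions were the thalamus (permutation adjusted p = 0.096) and the corpus callosum (r 0.25, permutation adjusted p = 0.083). Between the pericyte genes Rgs5 and Higd1b r was lower, with a median of 0.24 (-0.20 to 0.69, median rho 0.16), and 6 regions passed. Rgs5, a marker shared by both kinds of mural cell, and Acta2 had a median r of 0.23 (-0.22 to 0.52, median rho 0.22), and 5 regions passed. Without the 2 libraries farthest from the median of the first gene, the median r was 0.54, 0.48, 0.13 and 0.26 in the same order of pairs.

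**Figure D2:**
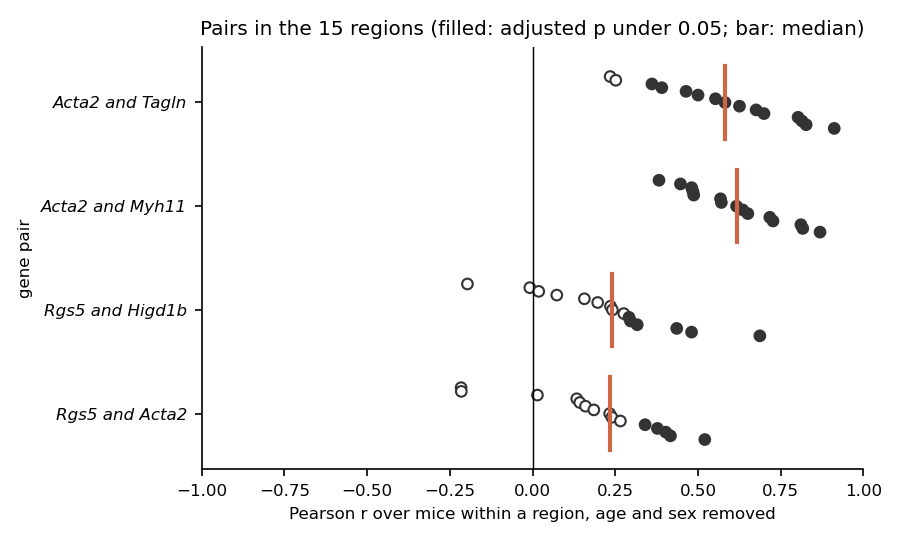
Pearson's r over mice within each of the 15 regions (horizontal axis) for 4 pairs of members, from log2 CPM with age and sex removed. Each circle is a region, filled where the permutation p adjusted over 60 tests is under 0.05, and the orange bar is the median: the 2 pairs of muscle genes have medians of 0.62 and 0.58, the pairs with Rgs5 of 0.24 and 0.23.

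The genes that varied most like the mean of the muscle members, over 15 regions and among 11953 genes with at least 5 CPM on average, were Myl9, the regulatory light chain of smooth muscle myosin (mean r 0.65, from 0.38 to 0.91), Bgn (0.50), Crip1 (0.49), Cavin1 (0.47), Cyp1b1 (0.46), Cp (0.45), Slc22a8 (0.45) and Cnn2 (0.45). Those most like the mean of the pericyte members were mostly endothelial genes: Ptprb (mean r 0.57, from 0.31 to 0.81), Flt1 (0.56), Itga1 (0.55), Abcb1a (0.54), Pecam1 (0.53), Eng (0.50), Myl9 (0.50) and Adgrf5 (0.50). In single regions r with the muscle mean fell to -0.23 for Bgn, -0.24 for Cavin1, -0.31 for Slc22a8 and -0.071 for Cnn2. With the pericyte mean it fell to -0.099 for Eng. For the other genes named r was above 0 in all 15 regions. All these values are descriptions without a test, and the means share libraries and depth with each gene.

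The study compared ages, and the muscle genes carried most of what changed among the members. The slope with age in months was fitted in each region with sex as a covariate, with mice as replicates and p-values that measure the spread between mice. Of 45 pairs of muscle gene and region, 9 fell with age (20%) and 0 rose in edgeR's test, 39 slopes were below 0, and their median was -0.019 on the log2 scale per month. At an unadjusted p under 0.05, 19 pairs were lower and none higher. Over all genes 23.58% of pairs were under that value, both directions together. Of 100 pairs of pericyte gene and region tested, 2 fell (2%) and 1 rose (1%), 45 slopes were below 0, and the median was 0.0012. Among all genes in all regions 4.71% of pairs fell and 5.87% rose, and 50.8% of slopes were below 0. By region the share of all genes that fell ranged from 0.0207% in the entorhinal cortex and 0.743% in the pons to 8.65% in the motor cortex, 8.71% in the corpus callosum and 9.03% in the choroid plexus. Anpep was too low to be tested in 5 regions. In males alone 4 of the 11 falls and 0 of the 1 rise were called, and without the 3-month mice, an alternative added after the data were seen, 0 of the 12 calls were. Over all genes 2.64% of pairs fell and 3.57% rose in males alone. Without the 3-month mice 1.39% fell and 2.455% rose.

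**Figure D3:**
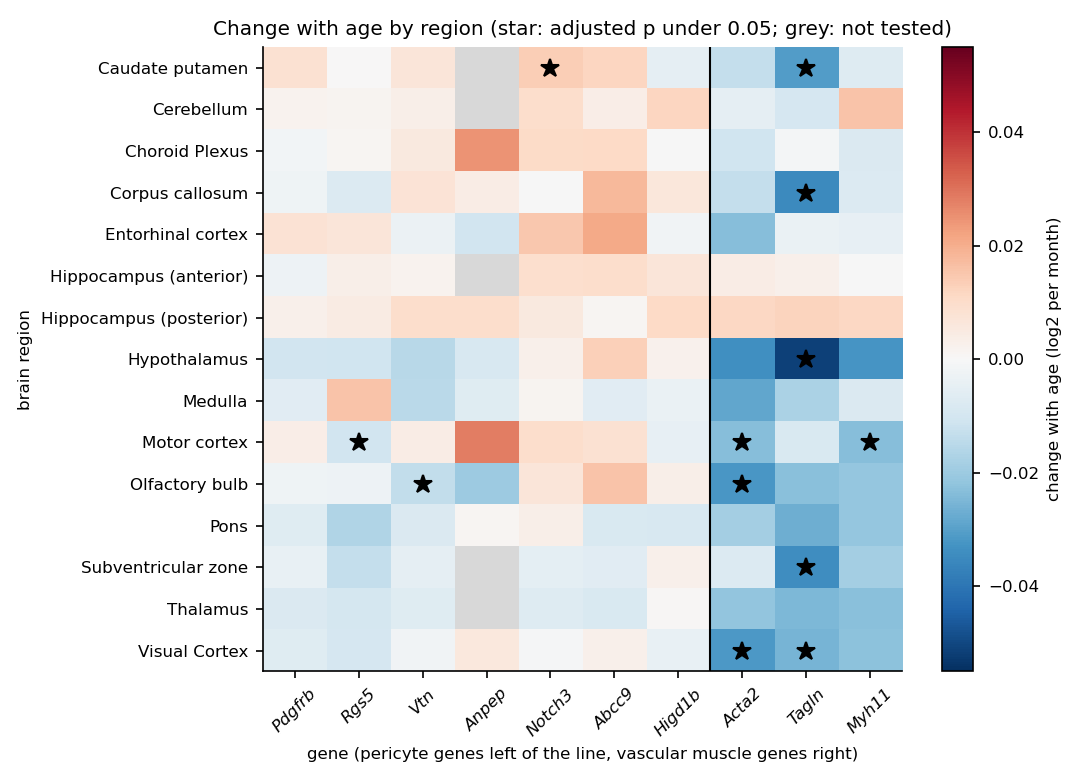
Slope with age (colour, log2 per month, blue lower and red higher) of each of the 10 genes (columns) in each of the 15 regions (rows). Stars mark an adjusted p under 0.05 and grey squares were not tested: 9 of the 12 stars are in the 3 muscle columns on the right, all 9 of them falls, and 5 of those belong to Tagln.

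Tagln fell in 5 regions. In the caudate putamen it lay between 5.82 and 11.6 CPM (median 7.86) in the 9 mice of 3 months, and at the later ages medians ran from 3.89 CPM at 26 months to 4.87 CPM at 12 months. Of the 49 later libraries, 0 were above the 3-month median and 40 were below the lowest 3-month library. The slope was -0.031 log2 per month (SE 0.0065, edgeR adjusted p = 0.00058). Without the 3-month mice the slope was 0.0056 (edgeR adjusted p = 0.96).

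In the corpus callosum Tagln had 1.57 to 8.74 CPM at 3 months (median 4.22) and 1.76 to 3.89 CPM at 21 months (median 2.21), with overlapping ranges and 2 of the 47 later libraries above the 3-month median. The slope was -0.035 (SE 0.0084, edgeR adjusted p = 0.0016). In the hypothalamus it had 2.67 to 5.86 CPM at 3 months (median 3.47) and 1.31 to 3.37 CPM at 21 months (median 2.03). The 26-month mice had 3.22, 1.06, 3.19 and 2.04 CPM, and the 28-month mice 1.47 and 1.86 CPM. The 12-month mice spanned 0 to 10.9 CPM, and the slope was -0.051 (SE 0.013, edgeR adjusted p = 0.013). In the subventricular zone, with medians of 3.77 CPM at 3 months, 2.37 CPM at 21 months and 2.12 CPM at 28 months, the slope was -0.034 (SE 0.0097, edgeR adjusted p = 0.018), and in the visual cortex, with medians of 3.94, 2.57 and 2.01 CPM, it was -0.026 (SE 0.0070, edgeR adjusted p = 0.012). Without mouse 25 the call in the subventricular zone was lost (edgeR adjusted p = 0.053), and the other 4 held without any 1 mouse. In males alone, with fewer mice, the slope was -0.022 in the caudate putamen (edgeR adjusted p = 0.083), -0.028 in the corpus callosum (0.084) and -0.058 in the hypothalamus (0.057), and the calls in the subventricular zone and visual cortex held.

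**Figure D4:**
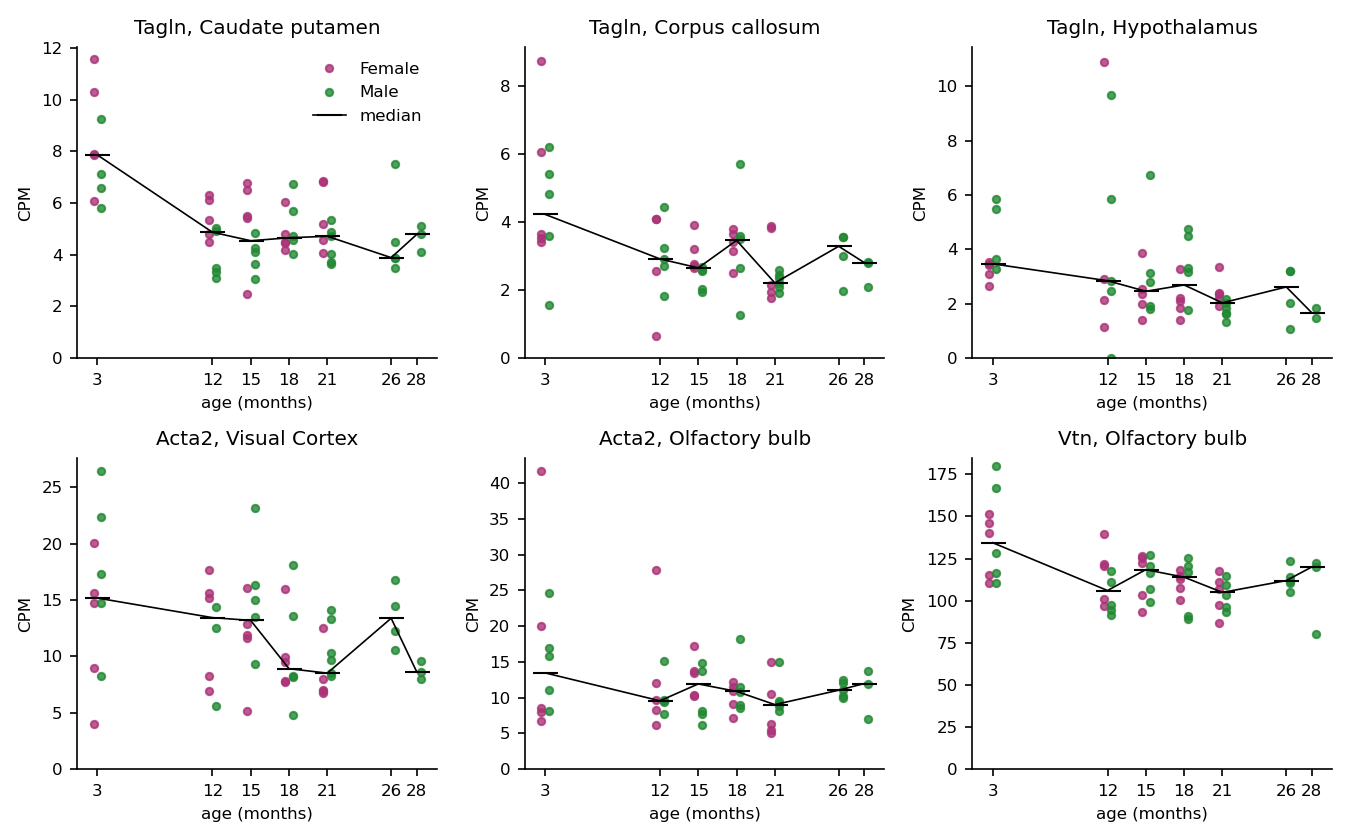
CPM (vertical axis, from 0) against age in months (horizontal axis) for 6 pairs of gene and region, each point a mouse, females in purple and males in green, with the median of each age joined by a line. Tagln in the caudate putamen has a median of 7.86 CPM at 3 months and of 3.89 to 4.87 CPM later, and 1 mouse of 3 months with 41.7 CPM of Acta2 stands out in the olfactory bulb.

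Acta2 fell in 3 regions. In the visual cortex it had 4.01 to 26.5 CPM at 3 months (median 15.2) and 6.79 to 14.1 CPM at 21 months (median 8.52), and none of the 11 mice of 21 months was above the 3-month median. The 4 mice of 26 months had 10.5, 12.3, 14.5 and 16.8 CPM, above the 3 mice of 28 months with 8.03, 8.64 and 9.60 CPM. The slope was -0.032 (SE 0.0086, edgeR adjusted p = 0.011). In the motor cortex medians were 11.0 CPM at 3 months, 8.82 CPM at 21 months and 7.64 CPM at 28 months, and the slope was -0.023 (SE 0.0073, edgeR adjusted p = 0.019, 0.064 without mouse 17, and 0.051 in males alone).

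In the olfactory bulb the fall of Acta2 rested on few mice. Its 3-month values ran from 6.78 to 41.7 CPM with a median of 13.4, its 21-month values from 5.03 to 15.0 CPM with a median of 9.01, and the slope was -0.032 (SE 0.0099, edgeR adjusted p = 0.019). The call was lost without mouse 21 (slope -0.028, edgeR adjusted p = 0.053) or mouse 49 (slope -0.020, edgeR adjusted p = 0.13), in males alone (slope -0.016, edgeR adjusted p = 0.24), with DESeq2 (adjusted p = 0.052), and with the fibroblast list (slope -0.019, edgeR adjusted p = 0.17) or the choroid plexus epithelium list (slope -0.019, edgeR adjusted p = 0.12) as a covariate. The fibroblast list summed to 216 to 846.7 CPM at 3 months in this region (median 432) and to 185 to 455 CPM at 21 months (median 298), with 0 of its 12 genes at a median of 0. Beyond these covariate fits, the part of these cells in the fall was not tested.

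Myh11 fell in the motor cortex, where its medians were 3.21 CPM at 3 months, 2.90 CPM at 21 months and 1.76 CPM at 28 months (1.12, 1.76 and 2.74 CPM in the 3 mice). The slope was -0.023 (SE 0.0082, edgeR adjusted p = 0.039), and the call was lost without any 1 of 8 mice and in males alone (edgeR adjusted p = 0.11). In the pons and in the anterior and posterior hippocampus, where all 3 genes were higher than the mean of the other regions, none of the 3 passed. Acta2 in the pons had medians of 24.0 CPM at 3 months and 33.0 CPM at 21 months and a slope of -0.019 (95% interval -0.044 to 0.0060), and Myh11 in the posterior hippocampus had 5.37 and 6.91 CPM and a slope of 0.012 (-0.0079 to 0.031). With total counts and the number of genes detected as covariates, however, all 3 fell in the pons. Tagln fell by 0.049 log2 per month (edgeR adjusted p = 0.0032), Myh11 by 0.034 (edgeR adjusted p = 0.015) and Acta2 by 0.038 (edgeR adjusted p = 0.03). With these covariates 4.539% of pairs of all genes fell, all regions together.

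Among the pericyte genes Vtn fell in the olfactory bulb, its richest region. The 10 mice of 3 months had 110 to 180 CPM (median 134), the 48 later libraries 80.3 to 139 CPM (median 111), and 1 of the 48 was above the 3-month median. The slope was -0.014 (SE 0.0034, edgeR adjusted p = 0.0029), and without the 3-month mice it was 0.0012 (edgeR adjusted p = 0.96). With the fibroblast list as a covariate the slope was -0.0089 (edgeR adjusted p = 0.027), and in males alone -0.012 (edgeR adjusted p = 0.079). Rgs5 fell in the motor cortex, from medians of 40.1 CPM at 3 months and 41.3 CPM at 12 months to 37.5 CPM at 21 months and 33.0 CPM at 28 months (33.0, 26.7 and 34.7 CPM), with a slope of -0.011 (SE 0.0032, edgeR adjusted p = 0.016).

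Notch3 rose in the caudate putamen, from a median of 8.74 CPM at 3 months (6.13 to 10.9) to 11.8 CPM at 26 months (8.09, 13.1, 11.0, 12.7 and 11.8 CPM) and 10.4 CPM at 28 months, with 37 of 49 later libraries above the 3-month median. The slope was 0.014 (SE 0.0047, edgeR adjusted p = 0.041). This call was lost without any 1 of 17 mice, in males alone (edgeR adjusted p = 0.15) and among mice 16 to 56 (edgeR adjusted p = 0.2), whose ages of 3, 15, 18 and 21 months alternate along the mouse numbers. Pdgfrb, Anpep, Abcc9 and Higd1b had no call in any region by edgeR's test, with 2, 2, 1 and 1 regions at an unadjusted p under 0.05, and their steepest slopes were 0.028 (Anpep, motor cortex, 95% interval 0.0051 to 0.051, edgeR adjusted p = 0.081) and 0.021 (Abcc9, entorhinal cortex, -0.0020 to 0.044, edgeR adjusted p = 0.59). For Pdgfrb the 15 intervals together reached from -0.022 to 0.022 and for Higd1b from -0.024 to 0.024 log2 per month. Other settings called some of these genes. Pdgfrb fell in the pons with the depth covariates (-0.021, edgeR adjusted p = 0.026) and rose in the caudate putamen with the fibroblast list as a covariate (0.010, edgeR adjusted p = 0.047), and Abcc9 rose in the corpus callosum among mice 16 to 56 (0.025, edgeR adjusted p = 0.033).

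At 21 against 3 months, the oldest age with both sexes, 6 of 45 muscle pairs were lower (13.3%) and 0 higher, and 1 of 100 pericyte pairs was lower and 2 higher, against 2.65% lower and 3.53% higher over all genes. At an unadjusted p under 0.05, 12 muscle pairs were lower and none higher, where 19.42% of pairs of all genes passed, both directions together. Tagln fell by 0.92 on the log2 scale in the corpus callosum (SE 0.19, edgeR adjusted p = 0.00078), by 0.67 in the caudate putamen (SE 0.14, edgeR adjusted p = 0.0018), by 0.67 in the olfactory bulb (SE 0.23, edgeR adjusted p = 0.046) and by 0.58 in the visual cortex (SE 0.16, edgeR adjusted p = 0.034). Acta2 fell by 0.90 in the olfactory bulb (SE 0.25, edgeR adjusted p = 0.013) and by 0.72 in the visual cortex (SE 0.20, edgeR adjusted p = 0.035). Vtn fell by 0.39 in the olfactory bulb (SE 0.078, edgeR adjusted p = 0.00043). Both rises were in the corpus callosum: Abcc9 by 0.46 (SE 0.14, edgeR adjusted p = 0.035), with 2.10 to 4.48 CPM at 3 months and 3.29 to 6.24 CPM at 21 months, and Vtn by 0.22 (SE 0.068, edgeR adjusted p = 0.033). Without mouse 49, whose olfactory bulb held 41.7 CPM of Acta2, the log2 difference there was -0.60 for Acta2 (edgeR adjusted p = 0.11) and -0.31 for Tagln (edgeR adjusted p = 0.38). The calls in the visual cortex were lost without any 1 of 9 mice for Tagln and for Acta2, and that of Tagln in the olfactory bulb without any 1 of 10. Those in the corpus callosum were lost without any 1 of 8 for Abcc9 and 5 for Vtn. The falls of Tagln in the corpus callosum and caudate putamen and of Vtn in the olfactory bulb held without any 1 mouse. In males alone the fall of Vtn in the olfactory bulb was called (-0.47, edgeR adjusted p = 0.0092). None of the 6 falls of muscle genes was, with edgeR adjusted p from 0.061 for Tagln in the caudate putamen and corpus callosum to 0.61 for Tagln in the olfactory bulb. Over all genes 0.955% of pairs were lower and 1.245% higher in males alone.

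Taking 1 value per mouse, the mean over its regions of log2 CPM centred on each region, the slopes of all 3 muscle genes were below 0 and passed the test. This fit over 59 mice, added after the data were seen, gave -0.016 log2 per month for Tagln (SE 0.0032, limma adjusted p = 5.9e-05), -0.014 for Acta2 (SE 0.0030, limma adjusted p = 6.9e-05) and -0.0086 for Myh11 (SE 0.0035, limma adjusted p = 0.039). Notch3 rose by 0.0045 (SE 0.0017, limma adjusted p = 0.023). Among 15069 genes 26% fell and 21.6% rose, and the slopes of Tagln, Acta2 and Myh11 lay at percentiles 0.557, 0.763 and 3.66 of all slopes. The other 6 genes had no call: the 95% intervals were -0.0053 to 0.0017 for Pdgfrb, -0.0070 to 0.00011 for Rgs5, -0.0048 to 0.00072 for Vtn, -0.0019 to 0.012 for Anpep, -0.0019 to 0.0088 for Abcc9 and -0.0041 to 0.0044 for Higd1b. The calls on Tagln and Acta2 held without any 1 mouse. That on Myh11 was lost without any 1 of 8, in males alone (limma adjusted p = 0.12), among mice with all 15 regions (0.11), among mice 16 to 56 (0.13) and without the choroid plexus (0.05 after rounding). That on Notch3 was lost without mouse 53 or 57 and without the choroid plexus (limma adjusted p = 0.071).

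**Figure D5:**
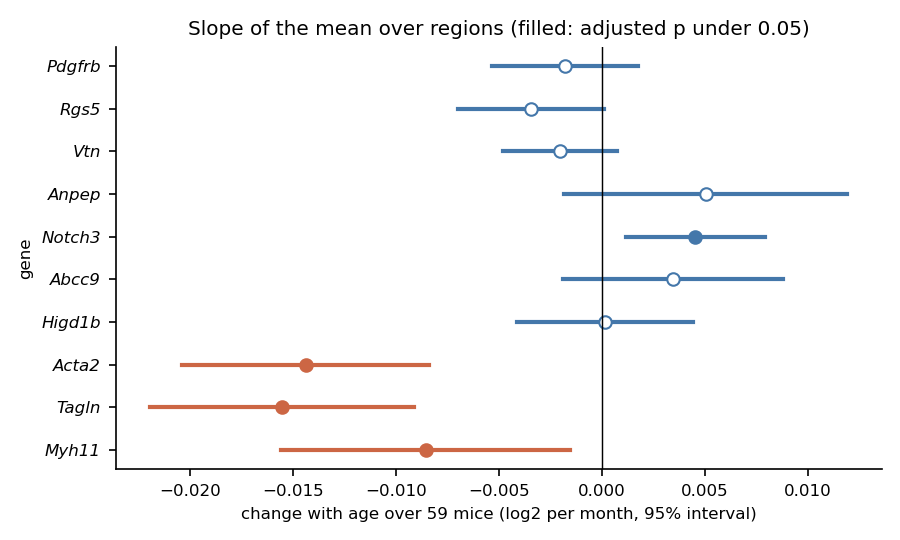
Slope with age over 59 mice (horizontal axis, log2 per month, points with 95% intervals) of the mean over regions of each of the 10 genes (vertical axis), pericyte genes in blue, vascular muscle genes in orange, filled where the limma adjusted p is under 0.05. Tagln at -0.016, Acta2 at -0.014 and Myh11 at -0.0086 lie left of 0, and Notch3 at 0.0045 lies right of it.

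By age, the means of the muscle genes were highest at 3 months. On this centred log2 scale Tagln was at 0.26 ± 0.13 (SD, n = 10 mice) at 3 months, -0.11 ± 0.21 (n = 10) at 12 months and -0.097 ± 0.20 (n = 11) at 21 months. Acta2 was at 0.22 ± 0.18 (n = 10), -0.076 ± 0.22 (n = 10) and -0.072 ± 0.15 (n = 11) at the same ages, and Myh11 at 0.14 ± 0.22 (n = 10), -0.066 ± 0.094 (n = 10) and -0.038 ± 0.14 (n = 11). The means at 15 and 18 months (n = 10 each) lay between those at 3 and 12 months. They were 0.033 ± 0.11 and 0.018 ± 0.18 for Tagln, -0.0010 ± 0.16 and 0.022 ± 0.145 for Acta2, and -0.011 ± 0.26 and 0.034 ± 0.28 for Myh11. In the males of 26 (n = 5) and 28 months (n = 3) the means were -0.14 and -0.087 for Tagln, -0.13 and -0.093 for Acta2, and -0.055 and -0.054 for Myh11. Without the 3-month mice none of the 3 slopes was called: -0.0057 for Tagln (95% interval -0.016 to 0.0051), -0.0077 for Acta2 (-0.018 to 0.0022) and -0.0036 for Myh11 (-0.015 to 0.0080). Notch3 was level at 3 months, -0.0048 ± 0.099 (n = 10), lowest at 12 months, -0.070 ± 0.088 (n = 10), and reached 0.13 ± 0.084 in the 3 males of 28 months, and its slope without the 3-month mice was 0.012 (limma adjusted p = 0.00023). Among mice 16 to 56 alone Notch3 (limma adjusted p = 0.68) and Myh11 (limma adjusted p = 0.13) were not called, and Pdgfrb (-0.0052, limma adjusted p = 0.028) and Rgs5 (-0.0065, limma adjusted p = 0.017) were. The mice of 12, 26 and 28 months all had numbers outside 16 to 56. A difference between these ages and the others therefore cannot be told apart from one between blocks of mouse numbers.

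The slope with age differed between regions for Tagln (edgeR adjusted p = 0.0012 over the 14 age by region terms, 0.00073 with the mouse as a block) and for Vtn (edgeR adjusted p = 0.048, but 0.057 with the block), and for 19% of all genes. For Tagln the slopes ran from -0.051 in the hypothalamus to 0.012 in the posterior hippocampus (95% interval -0.011 to 0.036), and for Vtn from -0.015 in the hypothalamus to 0.0096 in the posterior hippocampus. In males alone the difference was not called for Tagln (edgeR adjusted p = 0.2) or Vtn (0.22) and was called for Rgs5 (0.026). The other 8 genes had no call, the nearest being Rgs5 (edgeR adjusted p = 0.069), Myh11 (0.074) and Acta2 (0.15). Pcsk7, which overlaps 5.43% of Tagln, was not called for age in any region (lowest edgeR adjusted p = 0.23), and its slope over mice was 0.00052 (SE 0.00078, limma adjusted p = 0.61). The antisense RNA Gm48529, which overlaps 62.4% of Tagln, is not in the count table. Its part in the slopes of Tagln was not tested.

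Sex differences were few. Over the ages of 3 to 21 months 2 of 98 pericyte pairs were lower in males and 0 higher, and 0 of 45 muscle pairs passed edgeR's test, against 1.47% lower and 1.24% higher over all genes. At an unadjusted p under 0.05, 7 pericyte pairs were lower in males, and of 7 muscle pairs 1 was lower and the others higher. Over all genes 13.15% of pairs were under that value, both directions together. Rgs5 in the medulla had 13.5 to 73.4 CPM in 24 females (median 41.0) and 14.2 to 45.2 CPM in 26 males (median 30.8), a log2 difference, male minus female, of -0.46 (SE 0.13, edgeR adjusted p = 0.0084), in a region where 13.3% of genes were lower in males. Vtn in the anterior hippocampus had 37.4 to 79.9 CPM in 24 females (median 57.6) and 28.5 to 68.6 CPM in 25 males (median 48.9), a log2 difference of -0.26 (SE 0.062, edgeR adjusted p = 0.04), where 0.265% of genes were lower. Without mouse 1 the call on Vtn was lost (edgeR adjusted p = 0.06), and among mice 16 to 56 it was -0.17 (edgeR adjusted p = 0.31). The slope with age did not pass edgeR's test of a difference between the sexes in any of 98 pericyte and 45 muscle pairs. Over all genes 0.0184% of pairs were higher and 0.0543% lower. At an unadjusted p under 0.05 there were 3 pericyte pairs and 1 muscle pair, where 5.916% of pairs of all genes passed.

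From a list of 18 further mural contractile genes, not all of them parts of the contractile apparatus, 226 pairs of gene and region were tested for age. Of these pairs 14 fell (6.19%) and 3 rose (1.33%), with a median slope of -0.0021. Over all genes these shares were 4.71% and 5.87%, so the share that fell is near that of all genes. Casq2, a calcium store protein, fell in the caudate putamen (-0.027, edgeR adjusted p = 0.0023), corpus callosum (-0.030, edgeR adjusted p = 0.0087) and subventricular zone (-0.027, edgeR adjusted p = 0.019), 3 of the regions where Tagln fell. Synpo2, an actin-associated protein, fell in the subventricular zone (-0.043, edgeR adjusted p = 0.038). Tpm1, a tropomyosin also made outside muscle, fell in 4 regions and rose in the olfactory bulb, and Smtn, smoothelin, rose in the caudate putamen (0.022, edgeR adjusted p = 0.019) and choroid plexus. Over mice, 5 of 16 genes tested fell (31.2%, near the 26% of all genes) and 1 rose: Myl9 (-0.0096, limma adjusted p = 2.5e-07), Slc38a11 (-0.013), the calcium pump inhibitor Pln (-0.0093), Tpm1 (-0.0036) and Srf, serum response factor itself (-0.0033, limma adjusted p = 0.018), against Mustn1 (0.0091, limma adjusted p = 0.012).

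Of 18 further pericyte genes, 16 of 270 pairs rose (5.93%) and 1 fell (0.37%), with a median slope of 0.0021. Over all genes these shares were 5.87% and 4.71%, so the share that rose is near that of all genes. Over mice 4 of the 18 rose (22.2%) and 1 fell (5.56%), where 21.6% of all genes rose and 26% fell. Art3, an ADP-ribosyltransferase family member, rose in 7 regions, most in the pons (0.034, SE 0.0056, edgeR adjusted p = 1.6e-05), and over mice by 0.021 (limma adjusted p = 3e-10). Kcnj8, on this list and that of channel subunits, is the pore of the ATP-sensitive channel that Abcc9 completes. It rose in 4 regions, among them the caudate putamen (0.019, edgeR adjusted p = 0.029) and corpus callosum (0.017, edgeR adjusted p = 0.036), and over mice by 0.0097 (limma adjusted p = 0.0018). Mcam, a cell adhesion molecule, rose in the choroid plexus (0.028, edgeR adjusted p = 0.013) and motor cortex, and the transcription factor Foxd1 rose in the motor cortex (0.027, edgeR adjusted p = 0.042). Mcam also rose over mice by 0.011 (limma adjusted p = 0.003) and P2ry14 fell, with a slope of -0.0060 (limma adjusted p = 0.00031). Kcnj11 and Abcc8, subunits of the ATP-sensitive channel of neurons, fell over mice, Kcnj11 at -0.0045 (limma adjusted p = 0.011) and Abcc8 at -0.0036 (limma adjusted p = 0.043). They are 2 of the 3 genes of the channel list (66.7%), against the 26% of all genes that fell.

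In the pathway of Pdgfrb, 3 of 75 pairs fell (4%) and 2 rose (2.67%), not above the shares of all genes, 4.71% and 5.87%. All 3 falls were of Pdgfc, which signals mainly through the related receptor Pdgfra, in the corpus callosum, motor cortex and olfactory bulb (-0.013, edgeR adjusted p = 0.041). Pdgfra, a receptor of oligodendrocyte precursors and fibroblasts, rose in the medulla (0.024, edgeR adjusted p = 0.048) and motor cortex. Pdgfb, the ligand of Pdgfrb, had no call and a slope over mice of 0.00047 (95% interval -0.0029 to 0.0038). In the Notch pathway 7 of 195 pairs rose (3.59%) and 4 fell (2.05%), both below the shares of all genes. The ligand Jag2 rose in the caudate putamen, cerebellum and motor cortex, the target Heyl rose in the hypothalamus (0.017, edgeR adjusted p = 0.0081), and the target Hey2 fell in the motor cortex (-0.030, edgeR adjusted p = 0.00095). Of 10 vascular basement membrane genes 7 of 150 pairs rose (4.67%) and 6 fell (4%), also below those shares, with rises of the laminin chain Lamb2 in 3 regions and of Lama5 and Nid2 in 2 each, and falls of nidogen, Nid1, in 3, most in the cerebellum (-0.027, edgeR adjusted p = 0.00033).

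Markers of other cells were read beside these results. The 15 endothelial genes, whose cells line the same vessels, gave 13 rises (5.78%) and 11 falls (4.89%) in 225 pairs, near the shares of all genes. Of the falls 9 were of Mfsd2a, a lipid transporter of the blood-brain barrier, and of the rises 5 were of Kdr, a receptor of vascular endothelial growth factor. In the caudate putamen the endothelial genes summed to 357 to 444 CPM at 3 months (median 402) and 310 to 447 CPM at 21 months (median 401), where all later libraries of Tagln were below its 3-month median. In the visual cortex the endothelial median was 410 CPM at 3 and 362 CPM at 21 months, and in the corpus callosum 386 and 380 CPM. The choroid plexus epithelium list varied widely in the corpus callosum, with medians of 448 CPM at 3 months, 120 CPM at 21 months and 4349 CPM in the 3 mice of 28 months and 0 of 11 genes at a median of 0. With that list as a covariate the slope of Tagln there was -0.036 (edgeR adjusted p = 0.00083). Fibroblast genes fell in 9 (5.14%) and rose in 7 (4%) of 175 pairs, near the 4.71% and 5.87% of all genes. Of the 90 pairs of microglial genes 52 rose (57.8%) and 2 fell (2.22%). Neuronal genes fell in 12 (13.3%) and rose in 2 (2.22%) of 90 pairs. Astrocyte genes fell in 8 and rose in 8 of 90 pairs (8.89% each), and blood genes rose in 12 (16%) and fell in 0 of 75. Beyond the covariate fits, the part of other cells in the changes of the members was not tested.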

How the data were processed

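Full-length cDNA of brain tissue was sequenced and the authors deposited a table of raw read counts per gene and library, with reads trimmed by Trim Galore 0.3.7 and aligned by STAR 2.5.3a to GRCm38, per the submitters' processing notes. The protocol did not mark strand. Libraries differ in depth (481444 to 26756735 counts), which limits the precision of the low genes most.

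From the counts, CPM (per 1000000 deposited reads) and RPKM (exon length from GENCODE) were computed, and log2 CPM with a prior count of 2 for correlations. Tests used edgeR 4.0.16 (quasi-likelihood, TMM factors, filterByExpr, Benjamini-Hochberg adjustment over all genes of a region, threshold 0.05) in R 4.3.3, and limma 3.58.1 with a mean-variance trend for the slope over mice. Alternatives were DESeq2 1.42.0, RLE factors, no filter, subsets of mice, covariates and each mouse left out. Groups and the mouse number came from the labels. The number marks the animal, so regions of 1 mouse are paired, and the fit with the mouse as a replicate block was run for results across regions. Other genes named were the 8 most like the members, and of each list up to 4 called for age with the largest slopes. Further list genes were named after their values were seen. Members and lists were chosen with earlier results of these data known. Pairs of genes were tested with 100000 permutations, 2-sided. Scripts were tested on simulated data. Python 3.11.15, numpy 2.4.6, pandas 2.3.3, scipy 1.17.1 and matplotlib 3.10.9 were used.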

Additional observations from a re-analysis of the deposited data

Results flagged for a closer look

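In 83 groups of 4 to 10 libraries of 1 age, 9 libraries stood farther from the others of their group than Dixon's test allows at 95%, and chance gives about 1 in 20. The groups came from pairs of gene and region picked for a member's highest median or its largest called fall or rise. The remaining pairs were not searched. Acta2 in the olfactory bulb had 3 of them: 41.7 CPM in mouse 49 at 3 months (next 24.7), 27.9 CPM in mouse 1 at 12 months (next 15.1) and 18.2 CPM in mouse 35 at 18 months (next 12.2). Tagln in the hypothalamus was 6.74 CPM in mouse 34 at 15 months (next 3.86). Myh11 in the posterior hippocampus was 13.6 CPM in mouse 19 at 18 months (next 8.50). Rgs5 in the motor cortex was low at 26.3 CPM in mouse 5 at 26 months (next 37.2), and Notch3 in the hypothalamus was low at 8.95 CPM in mouse 22 at 15 months (next 13.1). Anpep in the entorhinal cortex was 5.72 CPM in mouse 17 at 3 months (next 3.04), and Higd1b in the medulla was 6.66 CPM in mouse 11 at 26 months (next 4.01).

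The slope with age differed between regions for Tagln (edgeR adjusted p = 0.00121) and Vtn (edgeR adjusted p = 0.0481).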

How the results depend on the processing

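Over pairs of gene and region 11 fell and 1 rose with age. Over all genes 4.71% of pairs fell and 5.87% rose. Males alone gave 5 and 0 calls, 4 of them among the 11, with Rgs5 in the subventricular zone added, and over all genes 2.64% and 3.57%. Covariates for depth gave 20 and 0, with all 11 falls and 9 more, 5 of them in the pons. With these covariates 4.539% of pairs of all genes fell and 5.597% rose, near the 4.71% and 5.87% of the main fit. Leaving out the 3-month mice, chosen after seeing the data, gave 1 and 2, none of them among the 12: Rgs5 in the subventricular zone fell and Notch3 rose in both hippocampal regions. Over all genes 1.39% of pairs fell and 2.455% rose without these mice. No filter gave 0 rises and the fibroblast covariate 2, with rises in 4.36% and 7.40% of pairs of all genes. Without the 3-month mice 2 called slopes changed sign, Tagln in the caudate putamen to 0.005616 and Vtn in the olfactory bulb to 0.001227. At 21 against 3 months, there were 7 falls and 2 rises, and in males alone 2 and 0, of which Vtn in the olfactory bulb was among the 7 and Rgs5 in the hypothalamus was not. Over all genes 2.65% of pairs fell and 3.53% rose in this comparison, and 0.955% and 1.245% in males alone. The 2 sex differences became 1 among mice 16 to 56 and 0 among 12-month mice. Over all genes the share of pairs lower in males was 1.47%, and 1.33% and 0.03995% in these subsets. Over mice, the rise of Notch3 was 0 calls among mice 16 to 56, among mice with all 15 regions and without the choroid plexus, and the 3 falls were 0 calls without the 3-month mice. Of all genes 3250 rose over mice in the main fit, and 2701, 2367 and 2822 in the settings where Notch3 was lost. In the main fit 3913 of 15069 fell, and 2652 of 15051 without the 3-month mice. The cause of these changes was not tested, beyond the smaller number of mice where mice were left out.

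With the mouse as a replicate block, slopes differed between regions for 1 gene in place of 2, and 3 regional calls were gained. That count was also 1 with no filter, with RLE factors, without the 3 libraries set apart, and in males alone.

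With 1 mouse left out at a time, age rises ranged from 0 to 2 and falls from 9 to 12, with the lowest without mouse 17. At 21 against 3 months rises ranged from 0 to 3 and falls from 3 to 7, with 3 without mouse 49 and 4 without mouse 41 or 44. Sex differences ranged from 1 to 2, with 1 without mouse 1. Regional calls ranged from 48 to 50 higher and 60 to 63 lower. Genes whose slope differed ranged from 1 to 2, with 1 without mouse 16, 18 or 19, and slopes over mice from 0 to 1 higher and 2 to 4 lower. Not all planned mice were left out: 7 of 12 for the difference in slope and 10 for sex and for age by sex. The depth of Anpep, with a median of 5 reads, limits its values most.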
